A study of Mus musculus with 4 samples.

Results

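Phosphofructokinase is the enzyme that commits glucose to glycolysis, and in mice its subunits come from the genes Pfkl, Pfkp and Pfkm, named for liver, platelet and muscle. Pfkfb3 encodes a bifunctional enzyme that makes fructose 2,6-bisphosphate, the strongest allosteric activator of phosphofructokinase. These 4 genes were chosen by name, with earlier results of these data known. Every probe set of the array annotated to 1 of them and to no other gene was taken. That gave 4 of 12393 genes, with 7 of the 20380 probe sets that have a single gene symbol, among 22690 in all. Pfkl, Pfkp and Pfkfb3 had 2 probe sets each, called brighter and dimmer here by their mean signal, and Pfkm had 1.

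RNA came from primary mouse embryonic fibroblasts, cultures grown from embryos at e14.5 (embryonic age in days), and each group was measured on 1 Affymetrix array. The groups were tri-CH1 cells in hypoxia (0.1% oxygen), wild-type cells in hypoxia, tri-CH1 cells in normoxia (21% oxygen) and wild-type cells in normoxia, each kept for 6 h at 37 °C with 5% carbon dioxide in medium equilibrated overnight at the same oxygen level. In tri-CH1 cells both alleles of p300 and 1 allele of CBP lack the CH1 domain, so 1 CBP allele is intact. The labels do not say how many embryos went into a culture.

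Cells make ATP from glycolysis when oxygen is short, and the transcription factor HIF-1 raises the genes of that pathway. HIF-1α binds the CH1 domain of the coactivators p300 and CBP, and Pfkfb3 and Pfkl are known HIF targets. The active phosphofructokinase is a tetramer that can mix the subunits, which differ in how strongly metabolites activate or inhibit it. The comparisons below ask which of these genes responded to low oxygen, whether the isoforms responded alike, and whether the response differed in cells that lack most CH1 domains.

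The promoter windows of the genes are shown because the genes moved unequally with oxygen, and because the core letters of the hypoxia response element, the DNA element bound by HIF, can be looked for in them. Each window runs from 250 bases before to 50 bases after a transcription start, from RefSeq on build GRCm38.p6, 5′ to 3′ on the gene's strand, and all 4 genes matched the table by symbol. Capitals mark ACGTG or GCGTG on either strand, read as CACGT or CACGC where the match lies on the opposite strand.
Pfkl (chr10:78009758-78010057, minus strand): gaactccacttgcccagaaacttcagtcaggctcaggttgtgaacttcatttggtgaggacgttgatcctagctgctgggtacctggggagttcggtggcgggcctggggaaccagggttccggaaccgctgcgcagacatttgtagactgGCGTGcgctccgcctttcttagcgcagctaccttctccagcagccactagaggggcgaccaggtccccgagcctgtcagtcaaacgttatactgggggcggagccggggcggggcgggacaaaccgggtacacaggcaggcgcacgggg
Pfkp (chr13:6648722-6649021, minus strand): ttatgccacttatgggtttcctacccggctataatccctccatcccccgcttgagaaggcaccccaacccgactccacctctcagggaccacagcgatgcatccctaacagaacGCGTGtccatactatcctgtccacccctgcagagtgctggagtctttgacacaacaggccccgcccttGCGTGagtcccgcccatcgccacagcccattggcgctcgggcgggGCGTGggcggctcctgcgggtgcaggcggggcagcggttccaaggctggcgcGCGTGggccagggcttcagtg
Pfkfb3, upstream start (chr2:11553880-11554179, minus strand): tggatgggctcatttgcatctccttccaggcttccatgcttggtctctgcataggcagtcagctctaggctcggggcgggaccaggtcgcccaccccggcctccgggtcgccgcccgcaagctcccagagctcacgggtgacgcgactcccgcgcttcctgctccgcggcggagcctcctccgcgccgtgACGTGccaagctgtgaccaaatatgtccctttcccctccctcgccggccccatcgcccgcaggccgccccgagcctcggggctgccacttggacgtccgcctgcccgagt
Pfkfb3, downstream start (chr2:11502041-11502340, minus strand): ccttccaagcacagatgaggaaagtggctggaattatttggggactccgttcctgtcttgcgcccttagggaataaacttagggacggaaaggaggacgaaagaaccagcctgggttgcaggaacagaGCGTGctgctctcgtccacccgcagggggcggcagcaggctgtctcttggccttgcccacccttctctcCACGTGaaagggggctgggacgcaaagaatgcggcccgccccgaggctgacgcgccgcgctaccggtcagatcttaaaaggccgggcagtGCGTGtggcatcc
Pfkm, most upstream start (chr15:98092339-98092638, plus strand): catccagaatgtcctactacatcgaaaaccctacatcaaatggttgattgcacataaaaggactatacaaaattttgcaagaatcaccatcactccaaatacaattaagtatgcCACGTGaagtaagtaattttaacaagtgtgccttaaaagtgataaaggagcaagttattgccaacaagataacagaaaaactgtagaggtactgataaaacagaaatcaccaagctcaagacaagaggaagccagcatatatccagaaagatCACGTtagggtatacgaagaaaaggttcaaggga

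The Pfkl window held 1 match, GCGTG, and the Pfkp window held 4, all GCGTG. The upstream Pfkfb3 window held a single ACGTG that began 60 bases before the start, and the downstream window held 4 matches, 2 of them the overlapping readings of CACGTG on both strands. The window at the most upstream start of Pfkm held 3 matches, again with CACGTG read on both strands. The other 3 annotated starts of Pfkm, which are not printed, held 2, 1 and 0 matches, and the window with 1 overlaps the one with 2 and shares that match. Either motif was found in 43.8% of the 32851 promoter windows of that length, and 3.86% held 4 or more matches. Those windows were not matched to the genes for GC content, although both motifs contain CG. GC content was 62.3% for Pfkl, 64.7% for Pfkp, and 69.7% and 61.0% for the Pfkfb3 windows, against 36.7% for the printed Pfkm window and 53.0% to 59.0% for the others of Pfkm. The median over all windows was 52.7%. A match is a description of the letters and not a site of binding, which these arrays do not measure.

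The values are signals in arbitrary units that the authors scaled to the same target on each array, so a signal can be compared between arrays for 1 probe set but not between probe sets. There were no replicate arrays, so no difference was tested and no value has a replicate error. A probe set was counted in a comparison if its signal reached 500 on the brighter of the 2 arrays, and a call needed a difference of 2-fold by size, with 200 standing in for any weaker signal. Where the dimmer array was weaker than 200, the fold is therefore a lower bound, written "at least". The only spread available was that between probe sets of the same gene. For log2 hypoxia changes its SD was 0.29 in tri-CH1 (1351 genes) and 0.24 in wild type (1339 genes). It covers differences between probe sets and not those between cultures, and it was taken over all these genes, whether or not they changed. In whole cultures, a change in RNA per cell and a change in the share of cells that make it cannot be told apart.

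The arrays had between 6066 and 6328 probe sets at 500 or more. The wild-type normoxia array was of another lot than the other 3, and the wild-type hypoxia changes and normoxic genotype differences rest on it. Of 10 fibroblast markers, 8 were at 500 or more on every array, and the list summed to 139532 in tri-CH1 and 124868 in wild-type hypoxia and to 147623 in tri-CH1 and 131104 in wild-type normoxia. Thy1, a surface marker of fibroblasts, was lower in tri-CH1, at 3274 against 12389 in wild-type hypoxia and 3837 against 13148 in wild-type normoxia. Pdgfrb was also lower in tri-CH1 at both oxygen levels. Col1a1, Col1a2, Col3a1, Pdgfra, S100a4 and Dcn were higher in tri-CH1 at both, and Fn1 and Vim differed in direction between oxygen levels. Of 8 markers of skeletal muscle, the tissue for which Pfkm is named, Myod1, Myog, Myf5, Myh3 and Mylpf were under 200 on every array. Des was at most 392.8 and Ckm at most 364.6 on any array. The summed signal of that list was 1290 and 1454 in tri-CH1 cells, against 4022 and 4170 in wild-type cells, each in hypoxia and then normoxia, nearly all of the difference from Acta1. The epithelial list summed to 3224 in tri-CH1 and 4817 in wild-type hypoxia, against 1251 in tri-CH1 and 985 in wild-type normoxia, through Krt19, while Epcam and Cdh1 were at most 36.7 on every array. Krt8 was highest in tri-CH1 normoxia, at 501.8, and Krt18 in wild-type hypoxia, at 588.3. Of 4 blood and 4 neural markers, 1 in each list, Lyz2 and Nes, was at 500 or more on every array. No endothelial marker was above 390.5 on any array. The part of these markers in the results below was not tested. The single probe set of Crebbp, the gene for CBP, read 87.7 and 29.6 in tri-CH1 and wild-type hypoxia and 61.3 and 82.8 in tri-CH1 and wild-type normoxia, all under 200, and whether it lies in the deleted part was not given, so it checks no label.

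Hypoxia raised Pfkl, Pfkp and Pfkfb3 in both genotypes and left Pfkm under 2-fold in both. In tri-CH1, 6 of the 7 probe sets were called higher and none lower, where 3.27% of the 6294 counted probe sets were called higher. In wild type, 6 of 7 were also higher and none lower, where 3.22% of 6060 were. Both Pfkfb3 probe sets were counted only through hypoxia and lay under 200 in normoxia, so they had to pass 2-fold once counted. The dimmer Pfkp probe set was also counted only through hypoxia, with 475.6 in tri-CH1 and 407.1 in wild-type normoxia. These counts describe the probe sets that passed the minimum, of genes chosen with earlier results of these data known.

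**Figure D1:**
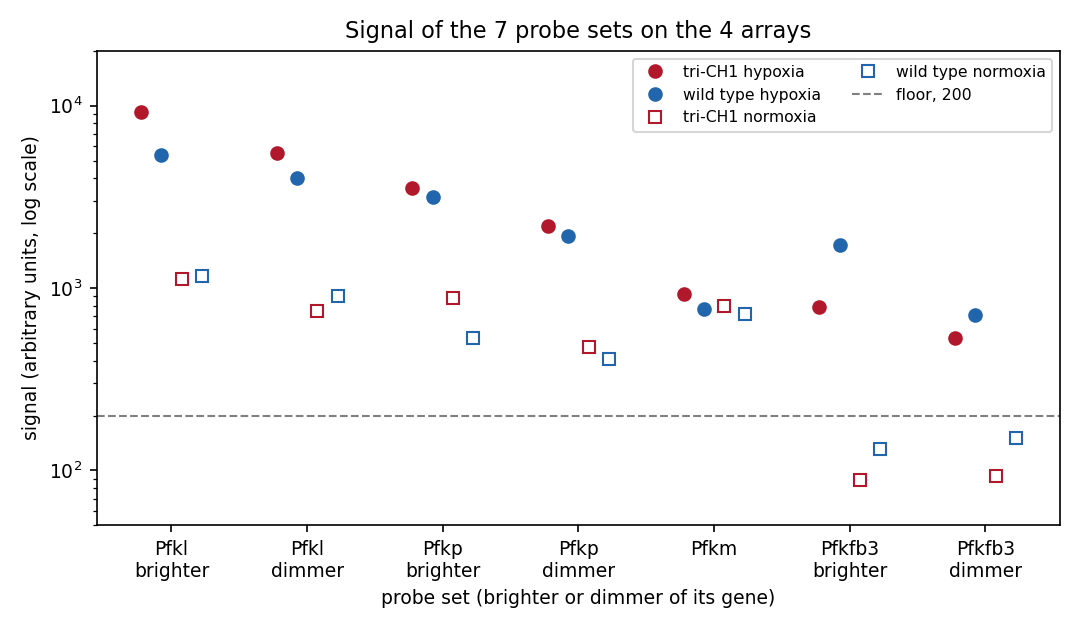
Signal of each probe set (log scale, arbitrary units) on the 4 arrays, 1 array per group, with hypoxia as filled circles, normoxia as open squares, tri-CH1 in red and wild type in blue. Pfkl, Pfkp and Pfkfb3 stand higher on both hypoxia arrays than on both normoxia arrays, while the 4 Pfkm signals lie between 722 and 927. Heights of different probe sets are not comparable.

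Pfkl, the liver-type subunit, was the isoform that changed most in tri-CH1 cells. Its brighter probe set read 9286 in tri-CH1 hypoxia and 1126 in tri-CH1 normoxia, and 5337 in wild-type hypoxia and 1159 in wild-type normoxia. Both hypoxia signals lay above both normoxia signals, and the normoxia signals of the genotypes were close. Pfkl therefore rose 8.24-fold in tri-CH1 (3.04 on the log2 scale) and 4.61-fold in wild type (2.20). The dimmer probe set read 5528 in tri-CH1 hypoxia and 745.8 in tri-CH1 normoxia, and 4030 in wild-type hypoxia and 905.7 in wild-type normoxia, in the same order of arrays. That is 7.41-fold in tri-CH1 and 4.45-fold in wild type, so the probe sets of Pfkl were 0.15 and 0.05 apart on the log2 scale. Only 14 of the 6294 probe sets counted in tri-CH1 rose by as much as the brighter one, itself included, against 47 of 6060 in wild type.

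Pfkp, the platelet-type subunit, also rose in both genotypes. Its brighter probe set read 3538 in tri-CH1 hypoxia and 886 in tri-CH1 normoxia, and 3158 in wild-type hypoxia and 529.1 in wild-type normoxia. The hypoxia signals of the genotypes were near each other, and wild-type normoxia was the lowest. Pfkp rose 3.99-fold in tri-CH1 and 5.97-fold in wild type. Its dimmer probe set read 2193 in tri-CH1 hypoxia and 475.6 in tri-CH1 normoxia, and 1941 in wild-type hypoxia and 407.1 in wild-type normoxia, a rise of 4.61-fold and 4.77-fold. Here the genotypes were 0.05 apart on the log2 scale, so the larger wild-type rise of the brighter probe set was not shared by the dimmer one.

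Pfkm, the muscle-type subunit, was present and stayed nearly level. It read 926.6 in tri-CH1 hypoxia and 800.9 in tri-CH1 normoxia, and 763.5 in wild-type hypoxia and 722 in wild-type normoxia. The log2 change with hypoxia was 0.21 in tri-CH1 and 0.08 in wild type, both smaller than the SD between probe sets of a gene. In tri-CH1, 26.3% of the counted probe sets had a log2 change as high or higher, and in wild type 34.5% did. A single probe set carries this result, and no second one checks it.

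Pfkfb3, whose product makes the activator of phosphofructokinase, was under 200 in normoxia in both genotypes. The brighter probe set read 785.8 in tri-CH1 hypoxia and 88.8 in tri-CH1 normoxia, and 1730 in wild-type hypoxia and 130.6 in wild-type normoxia. The dimmer probe set read 534.9 in tri-CH1 hypoxia and 93.2 in tri-CH1 normoxia, and 714.6 in wild-type hypoxia and 150.5 in wild-type normoxia. Both probe sets were high on the hypoxia arrays alone and highest in wild-type hypoxia. The rise was at least 3.93-fold in tri-CH1 and at least 8.65-fold in wild type for the brighter probe set, and at least 2.67-fold and at least 3.57-fold for the dimmer one. With a floor of 400 the log2 changes of both probe sets in tri-CH1, 0.97 and 0.42, and that of the dimmer one in wild type, 0.84, were under 2-fold.

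**Figure D2:**
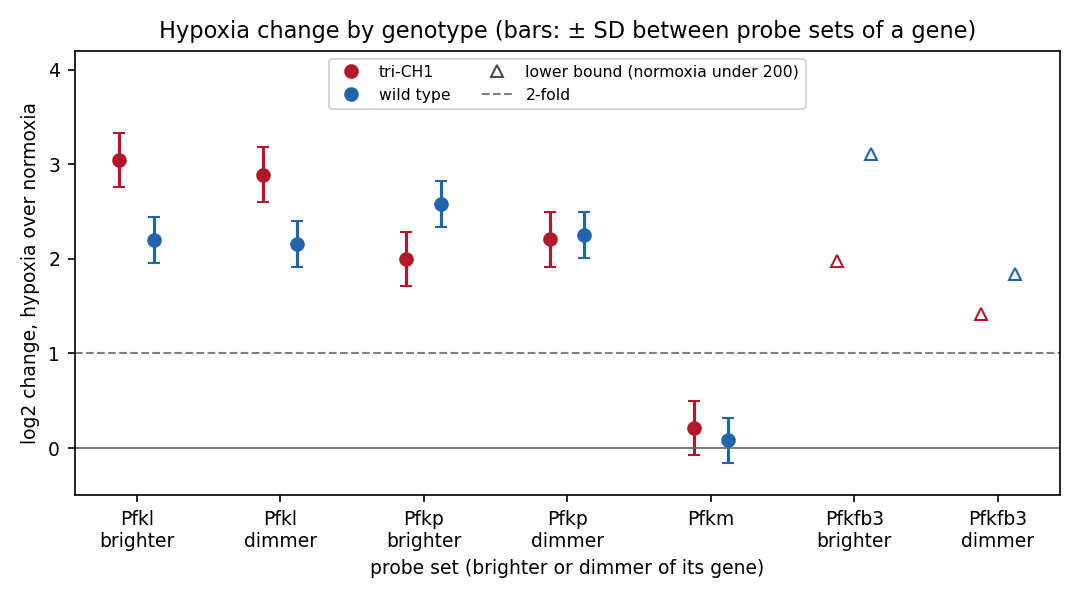
Log2 change with hypoxia (hypoxia over normoxia) for each probe set, tri-CH1 in red left of wild type in blue. Bars are ± the SD between probe sets of a gene, 0.29 in tri-CH1 and 0.24 in wild type, and open triangles are lower bounds without a bar. Pfkl lies higher in tri-CH1 (3.04 and 2.89) than in wild type (2.20 and 2.15), and Pfkm lies near 0 in both.

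The isoforms fell into a pair that rose and 1 that did not. The log2 change of Pfkl exceeded that of Pfkm by 2.83 in tri-CH1 and 2.12 in wild type, and that of Pfkp exceeded it by 1.79 and 2.50, with the brighter probe sets. These gaps were between 4.38 and 7.29 times the SD expected of a difference between probe sets, 0.41 in tri-CH1 and 0.34 in wild type. That SD was taken over genes whether or not they changed, so the multiples are not a test. In wild type the probe sets of Pfkl, Pfkp and Pfkfb3 were 0.05, 0.32 and 1.28 apart, the last between lower bounds.

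Pfkl rose more than Pfkp in tri-CH1, while in wild type their gap was near the spread or within it and gives no clear order. In tri-CH1 the hypoxia change of Pfkl was larger than that of Pfkp in all 4 pairings of their probe sets, by 0.69 to 1.05 on the log2 scale, or 2.06-fold with the brighter ones. In wild type it was smaller in all 4 pairings, with differences of -0.42 to -0.05, and the brighter pair at -0.37 was close to the SD of 0.34. With the dimmer Pfkp probe set the wild-type differences were -0.05 and -0.10, within that SD. The tri-CH1 difference minus the wild-type difference was 0.78 to 1.42 over the pairings, against an SD of 0.52 for such a value. The 4 pairings share the same 4 arrays and are not replicates. A difference between probe sets within an array does not move with the scaling of that array. Quantile and cyclic loess normalization left the value of 1.42 at 1.40 and 1.44, but they cannot show an effect of an array lot on single probe sets. With the brighter pair, the genotype log2 difference of Pfkl minus that of Pfkp was 0.63 in hypoxia and -0.78 in normoxia. With the dimmer pair it was 0.28 and -0.50. The normoxia part rests on the wild-type normoxia array, which was of another lot, and the part of the lot was not tested. The dimmer probe sets gave the smallest value, and the low wild-type normoxia signal of the brighter Pfkp probe set enters the largest.

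**Figure D3:**
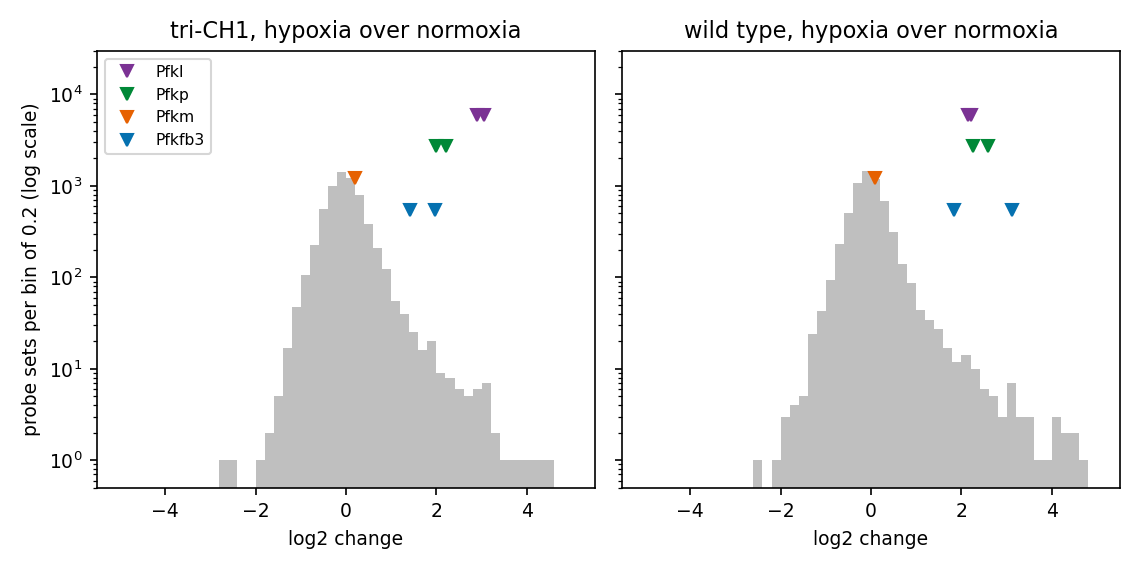
Histograms of the log2 change with hypoxia over all counted probe sets (6294 in tri-CH1 on the left, 6060 in wild type on the right, log count axis), with the probe sets of the 4 genes as triangles placed at arbitrary heights. Pfkl, Pfkp and Pfkfb3 lie in the right tail in both genotypes and Pfkm lies within the bulk. The Pfkfb3 positions are lower bounds.

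Between genotypes, the largest gap was in the brighter Pfkfb3 probe set under hypoxia. The brighter Pfkfb3 probe set was 2.20-fold lower in tri-CH1 hypoxia, at 785.8, against 1730 in wild-type hypoxia. It was the only 1 of 7 probe sets past 2-fold either way, where 244 of 6186 (3.94%) were called lower and 224 higher. The dimmer probe set pointed the same way, with a log2 difference of -0.42, but was under 2-fold and 0.72 from the brighter one. Pfkl was higher in tri-CH1 hypoxia by log2 differences of 0.80 and 0.46, Pfkp by 0.16 and 0.18 and Pfkm by 0.28, all under 2-fold. The SD between probe sets was 0.30 for this comparison, so that Pfkp and Pfkm differed by less than it. Neither array of this comparison was the one of another lot. Their scale factors differed, at 8.70 in tri-CH1 hypoxia and 6.73 in wild-type hypoxia, and the part of this was not tested.

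In normoxia no probe set was called between tri-CH1 and wild type, of 4 that were counted, where 7.15% of 6304 were called either way. Pfkl showed log2 differences of -0.04 and -0.28 and Pfkm one of 0.15, all within the SD of 0.32. The brighter Pfkp probe set was at 886 in tri-CH1 normoxia and 529.1 in wild-type normoxia, a log2 difference of 0.74, and the dimmer one, below 500 on both arrays, had 0.22. Pfkfb3 was under 200 on both arrays and gives no fold. Scaling each array to the same median moved the median of all counted probe sets here from 0.00 to -0.25 on the log2 scale, and the Pfkp difference became 0.52, or 0.77 above that median.

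In order of signal, Pfkl ran from tri-CH1 hypoxia through wild-type hypoxia to the normoxia arrays, whose order is within the spread between probe sets. Pfkp had the same first places, with neighbours at 0.16 and 0.18 on the log2 scale that do not differ beyond that spread. Wild-type normoxia was last, by 0.74 with the brighter probe set and by 0.22, within the spread, with the dimmer one. Pfkm had all neighbours in its order within the spread. Pfkfb3 was highest in wild-type hypoxia, then in tri-CH1 hypoxia, and its normoxia signals under 200 have no order.

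The tri-CH1 response minus the wild-type response was 0.84 and 0.74 for Pfkl on the log2 scale, with an SD between probe sets of 0.37 for such differences over 1505 genes. Of the 6811 probe sets counted in either genotype, 3.49% had a difference as high as the brighter Pfkl probe set and 4.92% one as high as the dimmer. Pfkp had -0.58 and -0.05, and Pfkm 0.13. The differences for Pfkfb3, -1.14 and -0.42, compare bounds, since the normoxia signals of both genotypes were raised to 200. Without the floor they were -0.58 and 0.27, so the dimmer probe set turned direction. The Pfkfb3 signals in hypoxia above are measured and do not depend on the floor. The median difference of all 6811 was 0.03.

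Around the phosphofructokinase step, a list of genes that make or use fructose phosphates was compared. Of its members, 5 had a probe set with a single symbol, and 2 reached 500 in tri-CH1 and 1 in wild type. Aldoa, the aldolase that splits the product of phosphofructokinase, read 23122 in tri-CH1 hypoxia and 11486 in tri-CH1 normoxia, and 26657 in wild-type hypoxia and 15223 in wild-type normoxia. The rise was 2.01-fold in tri-CH1, while the wild-type log2 change of 0.81 was under 2-fold. Its other probe sets gave log2 changes of 0.82 to 0.91 in tri-CH1 and 0.60 to 0.99 in wild type, so its tri-CH1 call rests on the brightest one. Aldoc, another aldolase, read 536.7 in tri-CH1 hypoxia and 241.4 in tri-CH1 normoxia, a rise of 2.22-fold that was fixed once it was counted, since it reached 500 only in hypoxia, and was not bright enough to count in wild type, at 336.6 in hypoxia and 58.5 in normoxia. Another Aldoc probe set stayed under 200. Pfkfb2, a relative of Pfkfb3 known from heart, did not exceed 237.9 on any array, and Fbp1 and Fbp2, the phosphatases that run the step backward in gluconeogenesis, stayed under 200.

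A wider list held other glycolysis enzymes with glucose and lactate transporters, and 17 of its genes had a probe set with a single symbol. Among those without one were Gapdh, Eno1 and Gpi1, so these steps are not covered. On this list, 9 of 13 counted genes rose in tri-CH1 and none fell, where 3.19% of 4358 genes rose. In wild type 8 of 11 rose and none fell, where 3.05% of 4125 did. In tri-CH1, Slc2a3, Aldoc and Slc16a3 reached 500 only through hypoxia, and so did Slc2a3 in wild type. Slc2a3 in both genotypes and Aldoc in tri-CH1 were low enough in normoxia that they had to pass 2-fold once counted. Of the 10 genes at 500 or more in normoxia, 6 rose in tri-CH1, and 7 of 10 did in wild type. The median log2 change of the counted genes was 1.36 in tri-CH1, against -0.04 over all counted genes, and 1.53 in wild type, against -0.06. Highest in tri-CH1 were the lactate exporter Slc16a3, at 8.40-fold, and the glucose transporter Slc2a3, at 7.65-fold. In wild type they were Slc2a3, at least 21.7-fold, and the glucose transporter Slc2a1, at 6.19-fold. Lowest were the lactate dehydrogenase subunit Ldhb (log2 change 0.10) and the pyruvate kinase Pkm (0.59) in tri-CH1, and the phosphoglycerate kinase Pgk1 (0.36) and Aldoa (0.81) in wild type. Other Pgk1 probe sets gave 0.90 and 1.02 in wild type. Pfkl in tri-CH1, at 8.24-fold, stood between Slc16a3 and Slc2a3, while Pfkm lay below every counted gene of the list in wild type and below all but Ldhb in tri-CH1. Between genotypes in hypoxia, 1 of 13 counted genes was called, Slc2a3, lower at 1848 in tri-CH1 against 4349 in wild type, where 3.31% of 4233 genes were lower, and in normoxia none of 11 was, where 6.65% of 4333 were called. The other 3 Slc2a3 probe sets gave log2 differences of -0.99, -0.18 and -0.86 in hypoxia, all under 2-fold, and the count was 0 when probe sets of a gene were averaged.

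**Figure D4:**
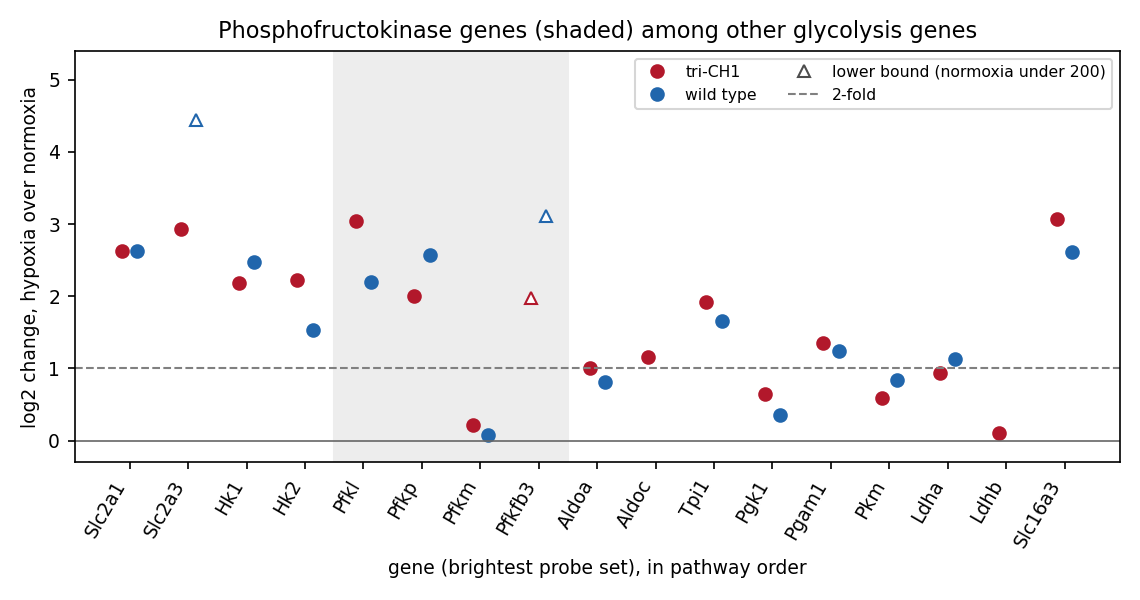
Log2 change with hypoxia (hypoxia over normoxia) for the brightest probe set of each gene, tri-CH1 in red left of wild type in blue, in pathway order with Pfkl, Pfkp, Pfkm and Pfkfb3 on the shaded ground. A point is shown only where the gene reached 500 on 1 of the 2 arrays, and open triangles are lower bounds. Pfkm, at 0.21 and 0.08, lies among the lowest points, beside Ldhb at 0.10.

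Genes with the most similar pattern were found by the distance between log2 signals, each centred on its mean over the 4 arrays after signals under 200 were set to 200, among 4644 other genes at 500 or more on an array. Nearest to Pfkl was Fam162a at a distance of 0.46, followed by Pdk1 (0.55), Stc2 (0.55), Gys1 (0.57) and P4ha2 (0.64). In wild-type normoxia Pdk1 (186) and Stc2 (126.8) were set to 200, so their places depend on the floor. Fam162a read 13944 in tri-CH1 hypoxia and 2363 in tri-CH1 normoxia, and 12262 in wild-type hypoxia and 2328 in wild-type normoxia. Nearest to Pfkp were Nampt (0.29), Hk1 (0.34), Me2 (0.40), Vldlr (0.45) and Fam117b (0.46). Hk1, the hexokinase that acts upstream in glycolysis, read 3768 in tri-CH1 hypoxia and 831.9 in tri-CH1 normoxia, and 3775 in wild-type hypoxia and 678.2 in wild-type normoxia, again with little difference between the hypoxia arrays. Nearest to Pfkfb3 were Ccng2 (0.39), Hilpda (0.44), Rgcc (0.58), Mxi1 (0.59) and Slc2a1 (0.69). Both normoxia signals of Pfkfb3, and Rgcc in tri-CH1 normoxia (146.5), were set to 200, so these distances depend on the floor. Like Pfkfb3, Ccng2 was higher on the wild-type hypoxia array, reading 1475 in tri-CH1 hypoxia and 2749 in wild-type hypoxia, with 258.3 in tri-CH1 normoxia and 290.7 in wild-type normoxia.

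Within a distance of 0.5 there was 1 gene for Pfkl, 7 for Pfkp and 2 for Pfkfb3, but 2252 for Pfkm, whose nearly flat pattern was common. Its nearest were Ndufa6 (0.03), Erg28 (0.04), Tsn (0.04), Ppp4r1 (0.05) and Ipo11 (0.05). Among the genes themselves, Pfkp was the 11th nearest to Pfkl at 0.79, and Pfkl was the 22nd nearest to Pfkp. Pfkfb3, with both normoxia signals set to 200, stood at 1.37 from Pfkl and 1.09 from Pfkp, and these values depend on that floor. With 4 arrays and no replicates, these distances describe the arrays only.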

How the data were processed

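Biotin-labelled total RNA was measured on 4 Affymetrix mouse arrays, 1 per group. Per the labels, the authors used the Affymetrix statistical algorithm to compute a background-corrected intensity for every probe set and scaled each array to a target of 500; the deposited intensity values are linear. The scale factors were 8.70 for tri-CH1 hypoxia, 6.73 for wild-type hypoxia, 10.3 for tri-CH1 normoxia and 3.46 for wild-type normoxia. Weak signals may be less precise in tri-CH1, which had the larger factors, but precision was not measured. The software version was not given in the sources used here.

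Names came from the platform annotation: 20380 had 1 symbol and were used, for 12393 genes, and 691 with several were left out. Gene numbers matched to RefSeq updated 0 symbols. A gene took its probe set of highest mean signal. No test was run, since each group had 1 array, and the number of arrays limits the precision. The members and gene lists were chosen with earlier results of these data known. Genes named besides the 4 were a fructose phosphate list, the 2 highest and lowest glycolysis genes of each hypoxia comparison, the 5 nearest patterns and Crebbp. Other probe sets of these genes and marker genes were named beside them. Alternatives were floors of 100, 400 and none, minimum signals of 250 and 1000, calls at 1.5-fold and 3-fold, quantile, cyclic loess and median scaling, and the mean over probe sets. The call rule was tested on simulated data. Python 3.11.15, numpy 2.4.6, pandas 2.3.3, matplotlib 3.10.9, R 4.3.3 and limma 3.58.1 (normalization only) were used.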

Additional observations from a re-analysis of the deposited data

How the results depend on the processing

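Of 210 recomputed log2 changes and response differences of the 7 probe sets, 190 moved by less than the SD between probe sets of a gene, and 20, all of Pfkfb3 under another floor, moved by more. None of those at 2-fold or more changed sign. Many of the 190 could not move. Every Pfkl, Pfkp and Pfkm signal was above 400, the lowest at 407.1, so no floor used could change their values. The Pfkfb3 signals in hypoxia were also above 400, which fixed its genotype differences there under every floor. Its normoxia differences were 0 wherever both signals lay under the floor. The 190 therefore overstate how far these values were tested. The number of probe sets called higher with hypoxia stayed between 4 and 6 in tri-CH1 and between 5 and 6 in wild type. With a minimum signal of 1000 only 4 were counted in tri-CH1 and 5 in wild type, and all were called. With a floor of 400, 4 of 7 were called in tri-CH1 and 5 of 7 in wild type. Between genotypes in hypoxia the count of 1 became 2 at 1.5-fold and 0 at 3-fold, and in normoxia the count of 0 became 1 at 1.5-fold. For the other glycolysis genes, the 8 called with hypoxia in wild type became 5 at 3-fold. Between genotypes in hypoxia their count of 1 became 3 at 1.5-fold, 0 at 3-fold, 2 with median scaling and 0 when probe sets of a gene were averaged. In normoxia their 0 became 4 at 1.5-fold and 1 with median scaling, and the cause of the changes with scaling and averaging was not tested. The other settings kept each count within 1.5 times. The Pfkl minus Pfkp differences were recomputed in settings chosen after seeing the data.

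Median scaling also moved the split of higher and lower calls over all probe sets, to 228 and 42 in tri-CH1 with hypoxia, from 206 and 75, to 181 and 118 in wild type, from 195 and 81, and to 120 and 463 between genotypes in normoxia, from 199 and 252. With 1 array per group, none was left out. Signals under 200, which include Pfkfb3 in normoxia, limit what can be said of its fold.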
